A study of Mus musculus with 14 samples.

Results

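Oxidative phosphorylation genes are the subunits of the respiratory chain and of ATP synthase. They were chosen by name, as the protein-coding genes called Nduf, Sdha to Sdhd, Uqcr, Cox4 to Cox8, Atp5 or mt- that stand in both deposited count tables, and this gave 106 of the 54378 genes that the tables share. Of these, 93 are encoded in the nucleus and 13 in mitochondrial DNA. The nuclear genes hold 36 subunits of complex I, 4 of complex II, 8 of complex III, 20 of complex IV and 17 of ATP synthase, and 8 Ndufaf genes, which are assembly factors of complex I and not subunits. The mitochondrial genes hold 7 subunits of complex I, 1 of complex III, 3 of complex IV and 2 of ATP synthase.

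RNA was sequenced from the gut of WT and MiR-29ab1-/- (KO) mice in 2 experiments. The first held 4 WT and 4 KO mice kept without dextran sulfate sodium (DSS), a detergent-like polymer that injures the colon lining, and the second held 3 WT and 3 KO mice given 3.5% DSS in the drinking water for 3 days. All 14 mice were labelled C57BL/6N. The methods describe littermates of both sexes aged 8 to 12 weeks and a germline knockout, so that the microRNA genes were missing from every cell type of the tissue.

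Complexes I and II pass electrons from NADH and succinate to coenzyme Q, complex III passes them on to cytochrome c, complex IV gives them to oxygen, and ATP synthase uses the proton gradient that I, III and IV build. Complex II is encoded in the nucleus alone, while the other complexes join nuclear subunits, made on cytosolic ribosomes and imported, to subunits made inside the organelle. Mitochondrial genes are transcribed as long polycistronic RNAs from both strands and cut apart at the tRNAs, so their levels tend to move together. Colon epithelial cells oxidise butyrate from the gut flora and are known for a high demand on this pathway.

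Total counts per mouse were 14231157 to 18185020 without DSS and 20076719 to 23153149 after DSS, so that the floor of 3 reads was at most 0.211 CPM (counts scaled to 1000000 reads) and covers counting error only. Mir29a had 0 reads in all 14 mice and Mir29b-1 at most 1, so the deletion was read from its neighbours. Lncpint, the long noncoding RNA beside the locus, had 7 to 23 reads in WT and 1386 to 2889 in KO mice without DSS, and 6 to 14 against 706 to 1144 after DSS. Gm27019 had 0 to 2 against 273 to 411 reads and 0 against 151 to 237 reads. The labels name crypts of the small intestine and the paper names colon. The summed CPM of 7 colon epithelium markers was 1780 to 4799 without DSS and 9803 to 14214 after DSS. The 12 small intestine markers summed to 191 to 372 and 301 to 496, so the markers went against the organ in the label. They do not tell crypts from whole tissue. The 11 epithelial markers summed to 13947 to 18251 and 23985 to 29808 CPM, and 11 smooth muscle markers to 51.9 to 70.7 and 50.3 to 71.6 CPM. How the tissue was prepared was not tested. Fewer cells of a type and less RNA per cell cannot be told apart in such bulk samples.

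The microRNAs of the deleted genes Mir29a and Mir29b-1 are shown first, because their seed is what was searched for in the subunit mRNAs. The capitals mark bases 2 to 8, the seed, which both 3p arms share. The knockout is named for these 2 genes alone. Mir29b-2 and Mir29c, which carry the same family name, had 0 reads in every group. Whether they still supplied this seed in KO mice was not tested. The sequences are RefSeq's, from GRCm38.p6, on the minus strand at chr6:31062673-31062694 and chr6:31063025-31063047.
mmu-miR-29a-3p: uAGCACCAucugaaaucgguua
mmu-miR-29b-3p: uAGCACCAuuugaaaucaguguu

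The match to this seed, TGGTGCT, was present in the 3′ UTR of 3 of the 92 nuclear members that had one (3.26%), against 2863 of 20972 genes in all (13.7%). The subunit mRNAs have short 3′ UTRs, with a median of 192 bases against 955 for all genes. Among 3′ UTRs shorter than 1000 bases, 0 of 84 members and 505 of 10798 genes (4.68%) held the match. The 3 members were Atp5g1, a copy of the membrane ring subunit of ATP synthase, Ndufb8, an accessory subunit of complex I, and Sdhc, a membrane anchor of complex II. Their sites are printed with the match in capitals, and the site of Sdhc has an A opposite the first base of the microRNA as well. All lie on the minus strand of GRCm38 (GENCODE vM21), at chr11:96073036-96073065, chr11:96072818-96072847, chr19:44549021-44549050 and chr1:171128674-171128703 in the order given.
Atp5g1, site nearer the stop codon: ctccatgccagtccTGGTGCTggagtctac
Atp5g1, second site: ctgggtaatgatgtTGGTGCTttgtcactt
Ndufb8: agagacactgcatgTGGTGCTcagacattc
Sdhc: gggtgctttgtttgTGGTGCTAggggtcaa

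Atp5g1 differed between KO and WT by −0.08 on the log2 scale without DSS and by 0.11 after DSS. Ndufb8 differed by 0.00 and 0.20, and Sdhc by −0.02 and 0.07. All 3 had overlapping groups in both experiments. A seed match is a run of letters and not a shown site, and no match says only that these letters are absent from the annotated 3′ UTR.

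The mitochondrial genes carry a limit of counting that has to stand beside their values. Chromosome 1 of the mouse holds a nuclear copy of a stretch of mitochondrial DNA, annotated as the genes Gm28661, Gm10925, Gm28437, Gm28438, Gm10222, Gm28439 and Gm29216 at chr1:24611535-24616197 on the minus strand (GENCODE vM21). The annotated copies of mt-Co2 (681 bases), mt-Atp6 (678), mt-Co3 (783), mt-Nd4l (294) and the first 876 bases of mt-Nd4 were identical to the mitochondrial genes. That of mt-Nd3 differed at 1 of 345 bases, T3C, counted from the first base of the mitochondrial gene. That of mt-Co1 covered its last 492 bases with 6 differences, T1056A, C1057T, A1059G, A1060G, C1062A and A1066T. The stretches that hold these differences are printed with the differing bases in capitals, from GENCODE vM21 transcripts, since they are the few bases by which a read could be placed.
mt-Nd3, bases 1 to 60: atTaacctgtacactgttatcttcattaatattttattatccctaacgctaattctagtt
Gm28438, the same stretch: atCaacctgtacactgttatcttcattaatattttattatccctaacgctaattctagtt
mt-Co1, bases 1054 to 1113: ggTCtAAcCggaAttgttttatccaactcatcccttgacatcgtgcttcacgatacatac
Gm29216, the same stretch: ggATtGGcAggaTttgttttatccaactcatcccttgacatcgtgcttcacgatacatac

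The share of 100-base windows that a mitochondrial gene has word for word in another annotated gene was 99.9% for mt-Co3, 99.5% for mt-Co2 and mt-Atp6, 98.5% for mt-Nd4l and 97.6% for mt-Nd3. It was 60.8% for mt-Nd4, 30.8% for mt-Co1, 3.19% for mt-Nd2, whose copy is Gm13339 on chromosome 2, and 0 for mt-Nd1, mt-Nd5, mt-Nd6, mt-Cytb and mt-Atp8. The 5 genes with nearly all windows shared stood lower per length than the others. Their means were 20.6 to 524 CPM per kilobase without DSS and 39.6 to 609 after DSS. The 7 genes with at most 60.8% shared, mt-Atp8 left aside, stood at 2693 to 33378 and 3440 to 39777. mt-Atp8, 204 bases long with 43 of them inside mt-Atp6, stood lowest of all at 14.2 and 13.9 CPM per kilobase with no shared window. It starts between mt-Co2 and mt-Atp6, whose copies on chromosome 1 leave a stretch from 24614651 to 24614885 between them. Windows were compared with annotated genes only, so a copy of mt-Atp8 in that stretch would not show, and this was not tested. How the authors' counting treated reads with several matches is not given in the sources used here, and its part in these levels was not tested. The levels of these 6 genes are therefore uncertain, that of mt-Nd4 in part as well, and so is the order of the 13 below.

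**Figure D1:**
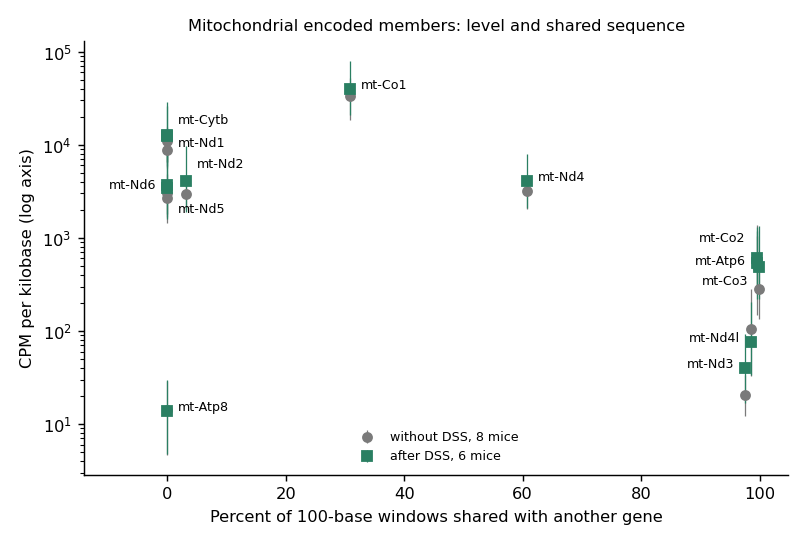
Level of each of the 13 mitochondrial encoded genes (CPM per kilobase, log axis) against the percent of its 100-base windows found in another annotated gene. Points are means over the 8 mice without DSS and the 6 mice after DSS and lines are the range over mice. mt-Co2, mt-Atp6, mt-Co3, mt-Nd4l and mt-Nd3 stand at the right, from 20.6 to 609 CPM per kilobase.

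Without DSS, the order of levels per length began with mt-Co1, the catalytic subunit of complex IV, at 33378 CPM per kilobase (18571 to 52266 over the 8 mice). Then came mt-Cytb, a heme-carrying subunit of complex III, at 10975 (6594 to 15333), and then mt-Nd1 at 8845 (5618 to 12440). mt-Nd4, mt-Nd5, mt-Nd2 and mt-Nd6, at 2693 to 3200, had ranges over mice that overlapped one another. After DSS the first 3 kept their order, at 39777, 12640 and 12474, and the ranges over mice of all 3 overlapped. The nuclear genes were lower per length than all mitochondrial genes without a window shared with another annotated gene, except mt-Atp8. The highest were Cox6a1 and Cox8a, both small subunits of complex IV, at 875 and 755 CPM per kilobase without DSS and 997 and 1041 after DSS. Atp5b, the catalytic beta subunit of ATP synthase, at 430, came next without DSS, and Cox4i1, a nuclear subunit of complex IV, at 658, came next after DSS. The lowest tested were Uqcrc1, Cox6b2 and Ndufb2 at 3.78, 2.65 and 2.32 without DSS, and Ndufaf2, Ndufb2 and Cox6b2 at 5.04, 1.29 and 1.19 after DSS.

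The first comparison asked whether the deletion moved these genes in mice without DSS. No member passed the test. Of the 85 nuclear members with enough reads for a test, 0 had an unadjusted p under 0.05 in edgeR's quasi-likelihood test in either direction, and of the 13 mitochondrial members 0 did. DESeq2 gave 0 as well in each case. Over all 15441 genes tested, 2.09% were higher in KO mice and 1.58% lower at that threshold, and 0.0194% (3 genes: Lncpint, Gm27019 and a transcript without a gene name beside Mir29a) had an adjusted p under 0.05. Groups that do not overlap were seen for 0 members, against 1.11% of all genes with every KO mouse above every WT mouse and 0.92% with every KO mouse below. The sign leaned one way, with 79 of 85 nuclear members and 12 of 13 mitochondrial members lower in the KO mean. The nuclear median was −0.08 on the log2 scale (range −0.26 to 0.27) and the mitochondrial median −0.17 (−0.72 to 0.16), beside −0.0016 for all genes. Leaving out 1 mouse moved the nuclear median between −0.13 (without KO mouse 3) and −0.01 (without WT mouse 4). It was −0.02 without KO mouse 2 and −0.05 without WT mouse 2 or KO mouse 4, and −0.13 without WT mouse 3. The mitochondrial median was −0.61 without KO mouse 4, −0.39 without WT mouse 2, −0.03 without WT mouse 1, −0.10 without WT mouse 4, −0.11 without KO mouse 3 and 0.00546 without KO mouse 2, where its sign turned. Without WT mouse 3 or KO mouse 3, 2 and 1 nuclear members had a p under 0.05, and without KO mouse 4 or WT mouse 2, 3 and 2 mitochondrial members did, all lower, where 1.09% to 2.14% of all genes were lower in these 4 fits.

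Individual values show how little separated the genotypes. Ndufa4, a small subunit of complex IV once counted to complex I, had the smallest p of the nuclear members. It was at 94.6, 95.4, 88.7 and 127 CPM in the WT mice and at 85.9, 77.7, 86.5 and 93.3 CPM in the KO mice, a log2 difference of −0.24 (SE 0.12) with adjusted p = 1.00 in edgeR. 3 of the 4 KO mice lay below the lowest WT mouse and KO mouse 4 lay inside the WT range. Atp5a1, the alpha subunit of ATP synthase, followed with −0.18, and Ndufb4, Ndufaf8, Ndufs5 and Cox4i1 with −0.17, −0.22, −0.20 and −0.13. The 6 members with a positive sign were Ndufa12 at 0.27 and Cox7a2l, Ndufb11, Ndufb8, Uqcrc1 and Atp5k at 0.00 to 0.02. Ndufa12, an accessory subunit of complex I, rested on a single animal. KO mouse 3 stood at 46.5 CPM, while the other 3 KO mice stood at 16.9 to 19.8 and the WT mice at 17.3 to 23.4, and without KO mouse 3 its difference was −0.20.

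mt-Co1 was at 80752, 37982, 60402 and 51918 CPM in the WT mice without DSS and at 44277, 28692, 40176 and 68357 CPM in the KO mice. Its log2 difference was −0.35 (SE 0.30). The WT range alone was wider than the distance between the genotype means. mt-Cytb was at 15880, 9940, 12425 and 14743 CPM in WT and at 11569, 7544, 10799 and 17540 CPM in KO mice, a difference of −0.16 (SE 0.25). In both genes KO mouse 2 was the lowest animal of the experiment and KO mouse 4 stood at or above most WT mice. mt-Atp6 had the lowest difference of the 13, −0.72 (SE 0.79), from 143 to 937 CPM in WT mice and from 101 to 633 CPM in KO mice.

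The second comparison asked the same after DSS. All 13 mitochondrial encoded genes were higher in the KO mean, by 0.98 (mt-Co1) to 1.74 (mt-Atp6) on the log2 scale with a median of 1.31, beside a median of −0.01 over the 14908 genes tested. An unadjusted p under 0.05 was reached by 11 of the 13, against 3.98% of all genes higher and 3.25% lower at that threshold. None reached an adjusted p under 0.05 in edgeR (0.0134% of all genes, Lncpint and Gm27019, did), the smallest adjusted p being 0.646, and DESeq2 gave 12 at the unadjusted and 1 at the adjusted threshold. The nuclear members showed no such size. Of 86 tested, 78 were higher in the KO mean and 8 lower, with a median of 0.11 (range −0.72 to 0.45), and 2 had an unadjusted p under 0.05, both higher. With TMM scaling the genes of both genomes therefore leaned the same way, but the mitochondrial ones by a larger log2 difference, as the plot of genotype differences by complex shows. The nuclear lean depended on the scaling. As a share of all counted reads the nuclear members took 2.22% in WT and 2.17% in KO mice, with overlapping groups. The sign of their median turned with total counts, as given below.

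**Figure D2:**
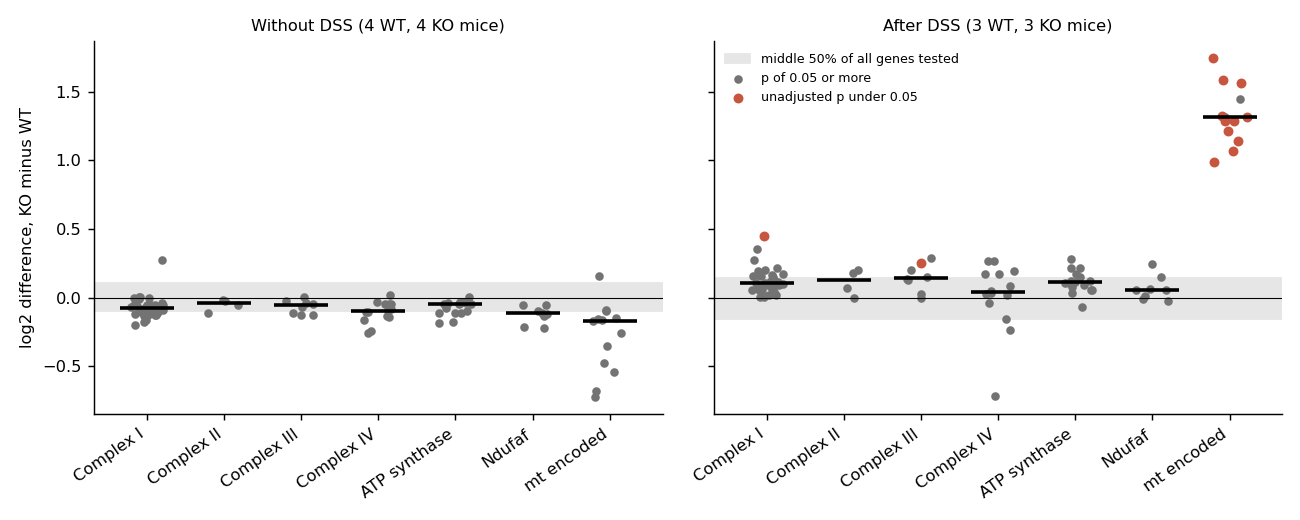
Difference between KO and WT means (log2, vertical axis) of each tested gene by complex, for nuclear subunits, the Ndufaf assembly factors and the mitochondrial (mt) encoded genes, without DSS on the left and after DSS on the right. Red points have an unadjusted p under 0.05, black bars are medians and the grey band holds the middle 50% of all genes tested. The 13 mitochondrial genes lie between 0.98 and 1.74 after DSS, above every nuclear member.

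The mitochondrial difference after DSS came from 2 of the 3 KO mice. mt-Co1 was at 47655, 32492 and 43635 CPM in the WT mice and at 82138, 122338 and 40479 CPM in the KO mice, a difference of 0.98 (SE 0.40, adjusted p = 0.657 in edgeR). KO mice 1 and 2 stood above every WT mouse and KO mouse 3 lay inside the WT range. mt-Cytb repeated this, with 10287, 7524 and 9264 CPM in WT and 20191, 29988 and 9506 CPM in KO mice (1.14, SE 0.38, adjusted p = 0.646 in edgeR). So did mt-Nd1, a membrane subunit of complex I, with 7603, 5674 and 7288 CPM in WT and 15881, 27885 and 7296 CPM in KO mice (1.31, SE 0.44, adjusted p = 0.646 in edgeR).

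The remaining complex I genes gave 1.32 for mt-Nd2, 1.56 for mt-Nd3, 1.07 for mt-Nd4, 1.44 for mt-Nd4l, 1.29 for mt-Nd5 and 1.29 for mt-Nd6. mt-Nd6 is the only one of the 13 encoded on the other strand. It stood at 1302, 934 and 1101 CPM in WT and at 2894, 4060 and 1183 CPM in KO mice, so it showed the same 2 mice high. mt-Nd4l (unadjusted p = 0.0651 in edgeR) and mt-Co3, a core subunit of complex IV (1.32, SE 0.70, unadjusted p = 0.122 in edgeR), were the 2 that missed the threshold. mt-Co2, which carries the copper centre that takes electrons from cytochrome c, was at 338, 203 and 211 CPM in WT and at 901, 528 and 317 CPM in KO mice (1.22, SE 0.42).

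The 2 mitochondrial subunits of ATP synthase had the largest and the second largest difference of the 13. mt-Atp6, part of the proton channel, stood at 194, 150 and 163 CPM in WT and at 813, 702 and 181 CPM in KO mice (1.74, SE 0.58, adjusted p = 0.655 in edgeR). mt-Atp8 stood at 1.80, 0.963 and 1.47 CPM in WT and at 6.02, 4.88 and 1.87 CPM in KO mice (1.58, SE 0.45, adjusted p = 0.646 in edgeR). mt-Atp8 and mt-Nd3 were the 2 members of the 13 in which every KO mouse was above every WT mouse, against 5.33% of all genes, and in both KO mouse 3 was above the highest WT mouse by a narrow margin. No member had every KO mouse below, against 6.28% of all genes.

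**Figure D3:**
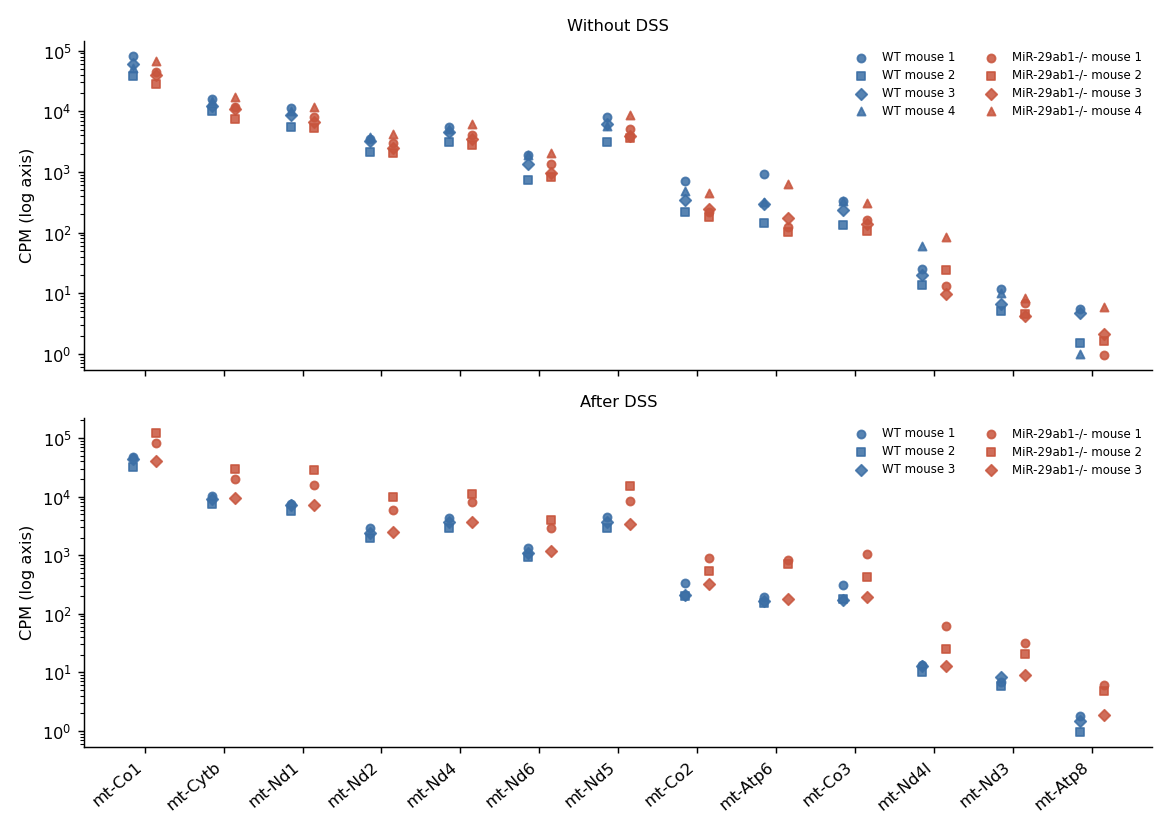
CPM of the 13 mitochondrial encoded genes in each mouse (log axis), WT in blue and KO in red, without DSS above and after DSS below, with 1 symbol shape per mouse number. After DSS, KO mice 1 and 2 lie above the WT mice in every gene, while KO mouse 3 lies in or next to the WT range.

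The count of mitochondrial genes past the unadjusted threshold depended on single animals. It was 13 without KO mouse 3, 4 of them with an adjusted p under 0.05, but 6 without KO mouse 1, 3 without KO mouse 2, 1 without WT mouse 2 and 4 without WT mouse 3. The calls over all genes moved with it, to 8.43% higher and 8.13% lower without KO mouse 3, with 93 genes past the adjusted threshold. They were 2.23% higher without KO mouse 1, 1.75% without KO mouse 2, 3.66% without WT mouse 2 and 4.32% without WT mouse 3. The median difference stayed between 0.87 and 1.67 in these fits.

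KO mice 1 and 2 were also above every WT mouse in 6 of the 7 copies on chromosome 1, with Gm29216 as the exception. Gm28661, the copy of mt-Co2, stood at 159, 127 and 142 CPM in WT and at 520, 840 and 192 CPM in KO mice after DSS (log2 difference 1.86, SE 0.55). Gm10925, the copy of mt-Atp6, and Gm28437, the copy of mt-Co3, differed by 1.55 and 1.23, and these 3 had an unadjusted and no adjusted p under 0.05 in edgeR. Gm29216, the copy of part of mt-Co1, differed by 0.71, with 122, 73.7 and 274 CPM in WT and 427, 242 and 101 CPM in KO mice, so that WT mouse 3 stood above KO mouse 2. Gm28438, the copy of mt-Nd3, stood at 63.0, 30.8 and 50.7 CPM in WT and at 66.0, 112 and 39.6 CPM in KO mice, with KO mouse 1 barely above WT mouse 1. Whether these reads came from the nuclear copy or from mitochondrial RNA was not tested. Mitochondrial rRNA and tRNA genes took 0.396% ± 0.160 (SD, n = 3) of reads in WT and 0.661% ± 0.362 (SD, n = 3) in KO mice after DSS, with overlapping groups.

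The same mice stood apart in some marker lists and not in others. What part this had in the mitochondrial difference was not tested. The summed level of 7 neutrophil markers was 45.5, 98.1 and 71.1 CPM in WT and 129, 242 and 90.6 CPM in KO mice after DSS. Of these genes, 5 were tested and all 5 were higher, S100a8, which encodes a neutrophil alarm protein, with an unadjusted p under 0.05. Mpo, the granule peroxidase, was at 0. Without DSS 1 of the 7 had enough reads for a test. Genes of low count can pass the filter through the KO mice alone, so the filter may set part of this count of higher genes. The 10 T cell markers summed to 53.6, 43.4 and 85.6 CPM in WT and to 150, 89.2 and 62.6 CPM in KO mice, with 10 of 10 higher and Cd5 and Cd8b1 past the unadjusted threshold. The 10 markers of striated muscle, a tissue rich in mitochondria, summed to 20.2, 12.6 and 8.35 CPM in WT and to 32.9, 44.4 and 10.8 CPM in KO mice, with Myh1 and Myh2 at 0. Only 1 of these 10 had enough reads for a test. The 7 brown fat markers summed to 3.81 to 5.50 in WT and 3.81 to 8.11 CPM in KO mice. Ucp1, the defining uncoupling protein, Elovl3, Adipoq and Plin1 were at 0, and 1 of the 7 had enough reads for a test. The 11 epithelial markers summed to 23985, 25800 and 26349 CPM in WT and to 27390, 29808 and 24908 CPM in KO mice. KO mice 1 and 2 were above every WT mouse in this sum. Of these genes, 9 of 11 were higher and 0 passed the unadjusted threshold. The 7 colon epithelium markers summed to 10430, 13083 and 14214 CPM in WT and to 10030, 9803 and 12841 CPM in KO mice, lowest in KO mice 1 and 2, with 5 of 7 lower and Saa1 higher past the unadjusted threshold. The 8 macrophage markers summed to 11.9, 16.6 and 17.4 CPM in WT and to 19.7, 28.3 and 11.99 CPM in KO mice, with 7 of 8 higher and 0 past it in edgeR. The 8 fibroblast markers summed to 30.2, 24.5 and 37.3 CPM in WT and to 39.6, 52.8 and 18.9 CPM in KO mice, with 3 of 6 tested higher and Col3a1 past it. The last 2 sums were highest in KO mice 1 and 2, and no gene of these 3 lists was at 0. In the other marker lists, KO mice 1 and 2 did not both lie outside the WT range. The 11 smooth muscle markers summed to 50.3 to 68.1 CPM in WT and to 64.3, 64.9 and 71.6 CPM in KO mice. The 9 of pericytes and endothelium summed to 12.5 to 15.6 and to 10.6, 15.2 and 16.8 CPM. The 8 of B and plasma cells summed to 10.9 to 34.7 and to 20.6, 42.7 and 11.6 CPM. The 7 of enteric neurons and glia summed to 3.70 to 4.48 and to 4.27, 6.31 and 3.54 CPM. KO mouse 2 also had the lowest TMM scaling factor of the 14 mice, 0.865.

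As a share of all counted reads, the nuclear members took 2.25%, 2.20% and 2.23% in the WT mice after DSS and 2.23%, 2.05% and 2.24% in the KO mice. The mitochondrial members took 8.24%, 5.90% and 7.35% in WT and 14.1%, 19.2% and 7.13% in KO mice. Mitochondrial reads thus outnumbered nuclear ones by 3.22 ± 0.501 (SD, n = 3) to 1 in WT and by 6.30 ± 3.09 (SD, n = 3) to 1 in KO mice. On the log2 scale this ratio was 1.67 ± 0.23 in WT and 2.52 ± 0.79 in KO mice, 0.85 apart, and the groups overlapped, since KO mouse 3 lay within the WT range. The difference was 0.50 without KO mouse 2 and 1.27 without KO mouse 3, the lowest and highest on leaving out 1 mouse. Without DSS the ratio was 2.65 ± 0.52 (SD, n = 4) in WT and 2.43 ± 0.53 (SD, n = 4) in KO mice, −0.22 apart, again with overlap. This difference was −0.03 without WT mouse 1, −0.08 without KO mouse 2, −0.11 without KO mouse 3, −0.14 without WT mouse 3, −0.44 without WT mouse 2 and −0.47 without KO mouse 4. There the mitochondrial members took 13.1%, 6.16%, 9.995% and 9.34% of reads in WT and 7.72%, 5.24%, 6.89% and 11.8% in KO mice, and the nuclear members 1.35% to 1.66% and 1.30% to 1.61%. Mice of 1 genotype therefore spread over a wider range in mitochondrial than in nuclear reads in both experiments.

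**Figure D4:**
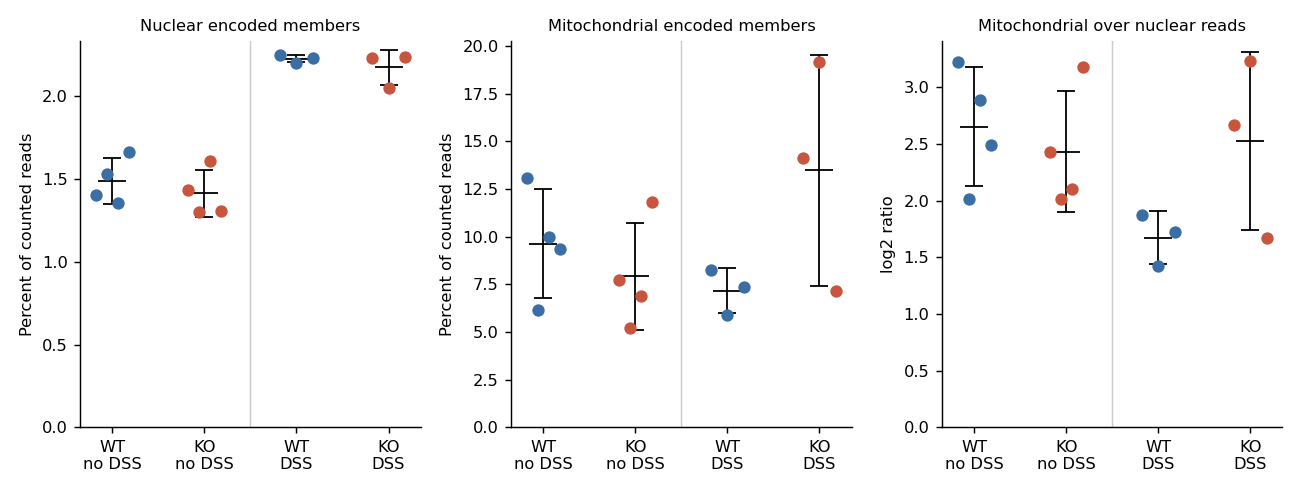
Percent of counted reads on the 93 nuclear members (left) and the 13 mitochondrial members (middle), and the log2 ratio of mitochondrial to nuclear reads (right), for each mouse, with the mean and SD of each group (4 mice without DSS, 3 after DSS). After DSS, 2 of the 3 KO mice lie above all WT mice in the middle and right panels and KO mouse 3 lies among them.

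The make-up of the mitochondrial reads differed less than their amount. mt-Co1 took 60.1% ± 0.955 (SD, n = 3) of them in WT and 56.7% ± 1.94 (SD, n = 3) in KO mice after DSS, with every KO mouse below every WT mouse. Without DSS it took 59.9% ± 3.5 (SD, n = 4) and 56.8% ± 0.925 (SD, n = 4), with overlap.

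The nuclear members after DSS are given by complex. All 36 tested complex I subunits were higher in the KO mean, with a median of 0.11. Ndufb6, an accessory subunit of the membrane arm, had the smallest p of all nuclear members. It stood at 58.5, 61.3 and 60.3 CPM in WT and at 90.4, 91.0 and 64.0 CPM in KO mice, with no overlap, a log2 difference of 0.45 (SE 0.14, adjusted p = 0.646 in edgeR). KO mice 1 and 2, the animals high in mitochondrial reads, were the high ones here too. Ndufb4, next to it in the membrane arm, stood at 76.0, 73.5 and 79.0 in WT and 88.6, 111 and 76.9 CPM in KO mice (0.27). Nuclear subunits of the catalytic core, which bind NADH and hold the iron-sulfur clusters, differed by little. Mean WT and KO levels after DSS were 139 and 148 CPM for Ndufs1, 106 and 109 for Ndufs3, 120 and 120 for Ndufs7, 121 and 137 for Ndufs8, 204 and 207 for Ndufv1, and 234 and 265 for Ndufv2, with overlapping groups in these 6. The 8 Ndufaf assembly factors had a median of 0.05.

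Complex II had a median of 0.13 over its 4 subunits. Sdha, the flavoprotein that oxidises succinate, was at 471 ± 19.9 CPM (SD, n = 3) in WT and 469 ± 21.7 CPM (SD, n = 3) in KO mice. Sdhb, the iron-sulfur subunit, was at 259 and 294 CPM, and the membrane anchors Sdhc and Sdhd were at 237 and 250 and at 323 and 373 CPM. In Sdhd every KO mouse stood above every WT mouse.

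In complex III all 8 subunits were higher in the KO mean, with a median of 0.15. Uqcr11, its smallest subunit, stood at 128, 141 and 162 CPM in WT and at 171, 182 and 162 CPM in KO mice, a difference of 0.26 (SE 0.11, adjusted p = 0.668 in edgeR). The groups were apart by less than 1 CPM, between WT mouse 3 and KO mouse 3. Uqcrq differed by 0.29 with overlap. The core proteins Uqcrc1 and Uqcrc2 were at 498 and 508 and at 344 and 397 CPM, and the Rieske protein Uqcrfs1 at 373 and 409 CPM, without overlap.

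Complex IV had the smallest lean of the complexes, with 10 of 14 tested subunits higher and a median of 0.04. Cox4i1 was at 1009 ± 165 CPM (SD, n = 3) in WT and 1031 ± 81.7 CPM (SD, n = 3) in KO mice, and Cox5a at 278 and 282 CPM. The lowest were Cox6b2 (−0.72), named for testis, Cox7a1 (−0.23), named for muscle, and Cox7a2l (−0.15), and Cox8a differed by −0.04. None of these had a p under 0.05.

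ATP synthase had 15 of 16 tested nuclear subunits higher, with a median of 0.11. Its alpha and beta subunits, Atp5a1 and Atp5b, were at 1822 and 1922 CPM and at 2189 and 2277 CPM, and in both every KO mouse stood above every WT mouse although the log2 differences were 0.08 and 0.06. The small membrane subunits Atp5mpl and Atp5k differed by 0.28 and 0.22 with overlap, and Atp5d, the delta subunit of the rotor, by −0.06.

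In all, 9 of the 86 tested nuclear members had every KO mouse above every WT mouse after DSS, where 5.33% of all genes did, and 0 had every KO mouse below, where 6.28% did. The 9 were Ndufb3, Ndufb6, Ndufaf2, Sdhd, Uqcrfs1, Uqcr11, Atp5a1, Atp5b and Atp5pb. The 2 nuclear members past the unadjusted threshold became 18 (1 with an adjusted p under 0.05) without KO mouse 3 and 7 without WT mouse 3, and 1 without KO mouse 1, KO mouse 2 or WT mouse 1. Over all genes 8.43% were then higher without KO mouse 3, 4.32% without WT mouse 3, and 2.23%, 1.75% and 2.52% without the last 3. With total counts in place of TMM scaling the median of all genes fell by 0.13 and that of the nuclear members stood at −0.03, so the sign of the nuclear median turned while it stayed above that of all genes under both scalings.

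The genotype differences were then compared between the experiments in 1 fit over 16370 genes, taking the difference after DSS minus that without DSS. It was positive for all 13 mitochondrial members, with a median of 1.46 (1.22 to 2.46), and 11 had an unadjusted p under 0.05, all but mt-Atp8 and mt-Nd4l. Over all genes 1.73% were higher and 2.3% lower at that threshold, and 0.0% had an adjusted p under 0.05, the smallest adjusted p of a member being 0.987 in edgeR. Of 86 nuclear members, 81 were positive, with a median of 0.19, and 3 had an unadjusted p under 0.05, namely Ndufs5 (0.57), Ndufb6 (0.46) and Ndufb4 (0.45), all subunits of complex I. DSS, the experiment and the table cannot be told apart in this comparison. The mitochondrial count was 3 without KO mouse 2 and 4 without WT mouse 2 of the DSS experiment. It was 7 without KO mouse 1 or WT mouse 3 of that experiment, and without WT mouse 1, KO mouse 2 or KO mouse 3 of the other. The nuclear count was 11 without KO mouse 3, 7 without WT mouse 3, 5 without WT mouse 1, 1 without KO mouse 2 and 0 without WT mouse 4 of the experiment without DSS, and 1 without KO mouse 1 and 0 without KO mouse 2 of the DSS experiment. Over all genes 0.958% to 3.28% were higher when 1 mouse was left out.

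Several subunits have an isoform named for muscle, testis or low oxygen, and most of these had few or no reads. Cox7b2 and Cox8c had 0 reads in all mice, Cox4i2 0 to 6 reads, Cox6a2 0 to 10, Cox8b 0 to 13 and Ndufa4l2 0 to 3. Cox6b2, with 28 to 69 reads without DSS and 13 to 46 after DSS, and Cox7a1, with 198 to 344 and 397 to 702 reads, had enough for a test. Their general counterparts were abundant. WT means without and after DSS were 667 and 1009 CPM for Cox4i1, 624 and 693 for Cox6a1, 232 and 347 for Cox6b1, 167 and 244 for Cox7a2, 473 and 575 for Cox8a, 242 and 350 for Cox7b, and 101 and 136 for Ndufa4. A second gene called Atp5o, ENSMUSG00000116933, which spans its neighbours, had 0 reads.

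Some nuclear members had counts in the table without DSS that set them apart from the other table. Ndufs3, a core subunit of complex I, had 0 reads in 7 of the 8 mice without DSS and 1 in the other, and 2078 to 2705 reads per mouse after DSS. The gene that overlaps it on the other strand, Kbtbd4, had 0 reads against 82 to 104. Uqcrc1 had 183 to 336 reads against 9505 to 12746, and Atp5a1 had 773 to 1134 against 36074 to 45369. Ndufa12 had 250 to 732 against 1393 to 2092. Over the 85 nuclear members tested in both tables, the WT level was higher in the DSS table for 78, with a median log2 difference of 0.34. The tables cannot be told apart from DSS and from the experiment, so these are levels side by side, and a genotype difference of Uqcrc1 or Atp5a1 without DSS rests on a small part of the reads that the other table gives.

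Nuclear members have copies too. Of 93, 31 shared at least 1 window of 100 bases with another annotated gene, 11 of them most with a pseudogene, and 2 shared over 50%, Atp5l (69.0% over all other genes, 47.2% with the pseudogene Gm10221) and the second Atp5o gene (77.0%). Atp5l is uncertain for that reason. Some members with less sharing had copies with many reads or with reads that varied between mice. Ndufs5 shared 19.8% with BC002163, which had 14 to 486 reads without DSS and 12 to 785 after DSS. Ndufa12 shared 17.7% with Gm15920, at 430 to 891 and 462 to 803 reads. Cox7a2l shared 9.90% with Gm6969, at 17 to 746 and 4 to 21 reads. The part of these copies in the differences of Ndufs5, Ndufa12 and Cox7a2l was not tested.

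By the name rule, 3 genes stood in 1 table alone. Dmac2l, called Atp5s in the DSS table, is a coupling factor of ATP synthase with 130 to 235 and 149 to 267 reads per mouse. Atp5md, called Usmg5 in the DSS table, had 1614 to 2731 and 4289 to 5215 reads. Under its second name it was at 195 ± 22.8 CPM (SD, n = 3) in WT and 247 ± 36.2 CPM (SD, n = 3) in KO mice after DSS, a difference of 0.34 with adjusted p = 0.655 in edgeR. Ndufb1-ps, filed as protein coding in 1 table and as a noncoding RNA in the other, had 453 to 965 and 1011 to 1367 reads.

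Promoters were searched for the motifs of factors known to act on these genes, both strands, from 250 bases before to 50 after the start, in RefSeq's GRCm38.p6 sequences. A promoter was found for 75 of the 93 nuclear members. The NRF1 core CGCATGCG was present in 11 (14.7%), against 2.77% of 17491 genes. The ETS core CCGGAAG, bound by GABPA among others, was present in 18 (24.0% against 12.9%), AAGATGG of YY1 in 12 (16% against 7.18%) and AAGGTCA of ERR alpha in 8 (10.7% against 4.73%). CGCATGCG reads the same on both strands, the letters AAG end the ETS core and begin the YY1 and ERR alpha motifs, so that matches may overlap, and a match is a description, not a bound site. Atp5j, Atp5k and Atp5l held 3 motifs each. The promoters of Ndufb6 and Uqcr11, the nuclear members past the unadjusted threshold after DSS, are printed with the motifs in capitals, an ETS core on the opposite strand in Ndufb6 and an ETS core followed by an NRF1 core in Uqcr11. They lie on the minus strand at chr4:40279372-40279671 and chr10:80406772-80407071.
Ndufb6: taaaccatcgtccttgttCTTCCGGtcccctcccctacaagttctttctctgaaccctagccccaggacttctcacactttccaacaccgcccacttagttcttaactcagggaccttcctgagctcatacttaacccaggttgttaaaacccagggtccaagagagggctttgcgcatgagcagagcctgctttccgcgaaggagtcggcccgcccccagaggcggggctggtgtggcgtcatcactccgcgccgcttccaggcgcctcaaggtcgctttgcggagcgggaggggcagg
Uqcr11: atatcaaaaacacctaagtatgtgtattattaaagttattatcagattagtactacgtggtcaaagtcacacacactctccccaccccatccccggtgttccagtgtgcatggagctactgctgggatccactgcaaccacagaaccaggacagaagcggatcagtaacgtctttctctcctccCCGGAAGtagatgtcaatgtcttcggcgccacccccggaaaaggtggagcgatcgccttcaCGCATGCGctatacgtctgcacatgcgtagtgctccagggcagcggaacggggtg

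Of 15 regulators of these genes, 1 passed the unadjusted threshold without DSS and 3 after DSS, where 3.98% of all genes were higher and 3.25% lower. Nrf1 and Esrra, which encode the factors NRF1 and ERR alpha, differed by 0.07 and 0.01 without DSS and by 0.01 and 0.01 after DSS. Tfam, which packs mitochondrial DNA and takes part in its transcription, differed by −0.10 and −0.15. Ppargc1a, the coactivator known for raising mitochondrial content, was at 36.3 ± 2.20 CPM (SD, n = 3) in WT and 28.6 ± 5.58 CPM (SD, n = 3) in KO mice after DSS, a difference of −0.34 (SE 0.15, adjusted p = 0.668 in edgeR), and differed by 0.19 without DSS. Its relative Pprc1 differed by −0.37 and Hif1a, the low oxygen factor, by 0.46 after DSS, and these 3 of 15 regulators had an unadjusted p under 0.05. Without DSS 1 of 15 did, Pparg (−0.31). Of 22 tested genes that transcribe, copy and care for mitochondrial DNA and RNA, 1 was lower without DSS, Ssbp1, which coats single-stranded mitochondrial DNA (−0.30), and 0 passed after DSS, with medians of −0.08 and −0.07.

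Other genes of the organelle were read from lists, whose counts stand beside 2.09% of all genes higher and 1.58% lower without DSS and 3.98% and 3.25% after DSS. Cycs, the cytochrome c carrier, was at 306 ± 52.1 and 402 ± 72.8 CPM (SD, n = 3) after DSS (0.39, unadjusted p = 0.0484 in edgeR) and differed by −0.10 without DSS, and Cyc1, cytochrome c1 of complex III, differed by −0.04 and 0.05. Atpif1, the inhibitor of ATP synthase, differed by −0.21 without DSS with every KO mouse below every WT mouse, and by 0.10 after DSS. Of the assembly factors outside the name rule, 1 of 37 was lower without DSS (Tmem186, complex I) and 2 of 38 were higher after DSS (Uqcc2, complex III, and Tmem70, ATP synthase), at the unadjusted threshold. The 78 proteins of the mitochondrial ribosome, which makes the 13 mitochondrial encoded subunits, had 0 of 76 past it without DSS, with 69 lower and a median of −0.09. After DSS 4 of 77 were higher (Mrpl20 0.38, Mrpl32 0.32, Mrpl33 0.30 and Mrpl57 0.27), with 61 positive and a median of 0.09. For the cytosolic ribosome the medians were 0.03 and 0.05, with 2 of 80 lower without DSS (Rpl21 and Rpl26) and 2 of 80 higher after DSS (Rpl22l1 and Rps21). None of the 17 citric acid cycle enzymes, the 13 coenzyme Q genes, the 14 carriers and outer membrane genes or the 7 superoxide and peroxide enzymes passed in either experiment. Of 17 glycolysis genes, 2 were lower without DSS at the unadjusted threshold, Pfkl and Gapdh, with a median of −0.03 over the list, and the median was 0.12 after DSS.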

How the data were processed

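The authors deposited raw read counts per gene in a table for each experiment. The submitters' processing notes name HISAT2 and DESeq2, without versions, and the methods name a directional library kit, while the counting tool, its strand setting and the genome build are not given in the sources used here. The tables also hold 14 columns of FPKM and the authors' own fold changes and p-values, none of which was used. Gene lengths were taken from the tables. Annotated positions and transcripts came from GENCODE vM21, in which 106 members matched in start and end without DSS and 100 after DSS.

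Genes with low counts were filtered by filterByExpr (smallest count 10, smallest total 15), libraries were scaled by TMM, and genotypes were compared within each table by the quasi-likelihood test of edgeR 4.0.16 in R 4.3.3, with Benjamini-Hochberg adjustment over all genes. The difference between experiments was an interaction over 14 mice. CPM are counts over the TMM-scaled library size, scaled to 1000000 reads, shares use raw totals, and SE is that of the log2 difference. DESeq2 1.42.0, other scalings and filters, a replicate block and leaving out each mouse were alternatives, and the scripts were tested on simulated data. The replicate numbers of the DSS mice follow the count columns, which could not be tied to the labels' numbers. The labels do not say more of how the samples were kept apart, so p-values measure the spread between these samples.

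The named genes were all mitochondrial members, the 6 higher and 6 lower nuclear members with the smallest p in each experiment, the catalytic core subunits, isoforms with their counterparts, the 3 highest and 3 lowest per length, Ppargc1a, Esrra, Tfam, Nrf1, Cycs, Cyc1 and genes with an adjusted p under 0.05. Members of the other lists were named where they passed the unadjusted threshold. Members and lists were chosen with earlier results of these data known. The methods state that a WT and a KO sample were left out by the authors. Some results on single genes are not reported here.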

Additional observations from a re-analysis of the deposited data

Results flagged for a closer look

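In 3 of 56 groups of 4 mice, 1 animal stood far from the others, measured as its gap to the nearest mouse over the range of the group and set against Dixon's critical value, and chance flags about 1 in 20 groups. All 3 were KO groups without DSS. For mt-Atp6 the value was 0.865, with KO mouse 4 at 633 CPM and the others at 101 to 173 CPM. For Ndufa12 it was 0.902 and for Atp5k 0.855, both from KO mouse 3.

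The genotype difference after DSS differed from that without DSS for 14 members at an unadjusted p under 0.05 in edgeR's interaction test, and for 0 after adjustment. On the log2 scale the difference of the differences was 2.46 for mt-Atp6, 2.04 for mt-Nd3, 1.90 for mt-Co2, 1.86 for mt-Co3, 1.47 for mt-Nd1, 1.46 for mt-Nd6, 1.42 for mt-Nd2, 1.39 for mt-Nd5, 1.33 for mt-Co1, 1.30 for mt-Cytb and 1.22 for mt-Nd4. Among nuclear members it was 0.57 for Ndufs5, 0.46 for Ndufb6 and 0.45 for Ndufb4.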

How the results depend on the processing

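Members past the unadjusted p under 0.05 moved with the settings. Without a filter on low counts, 2 nuclear members were lower without DSS, and after DSS 7 nuclear and 3 mitochondrial members were higher, with 1 mitochondrial member past the adjusted threshold, as with DESeq2 (1). With total counts, 1 nuclear member was higher after DSS, the nuclear median was −0.03, and 0 nuclear members passed between experiments. With all 14 mice in 1 model, 1 nuclear member was higher and 1 lower after DSS. The cause was not tested. Leaving out each mouse gave, without DSS, 0 to 2 nuclear and 0 to 3 mitochondrial members lower and a mitochondrial median of −0.61 to 0.00546. After DSS it gave 1 to 18 nuclear members higher, 0 to 1 lower and 0 to 1 adjusted, and 1 to 13 mitochondrial members higher and 0 to 4 adjusted, while 1.75% to 8.43% of all genes were higher and 0 to 93 genes adjusted. Between experiments it gave 0 to 11 nuclear and 3 to 13 mitochondrial members.

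With the replicate block, run without DSS only, 2 mitochondrial members were lower and their median was −0.20. Same-numbered mice correlated by −0.030, 0.149, −0.194 and −0.127, so the numbers were not taken to pair them. After DSS no block was fitted, because the column numbers are not those of the labels. Same-numbered columns correlated by −0.0608, 0.0513 and 0.0411. The sign of the block fit turned for mt-Nd4l (−0.12), Cox7a2l (−0.00676), Ndufb11 (−0.00263) and Uqcrc1 (−0.0285). It turned for Ndufb8 (−0.000121) and Uqcrc1 (−0.000260) with total counts, and for Atp5k without a filter (−3.48e-06) and with all mice (−0.00341).

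Differences without DSS that changed sign when a mouse was left out ranged from −1.001 to 0.15 for mt-Atp8, −1.68 to 0.0299 for mt-Atp6, −0.44 to 0.11 for mt-Nd5, −0.91 to 0.76 for mt-Nd4l, −0.32 to 0.0525 for mt-Nd2, −0.41 to 0.00546 for mt-Nd1, −0.41 to 0.0119 for mt-Nd4, −0.48 to 0.00697 for mt-Nd6, −0.41 to 0.0152 for mt-Cytb, −0.0590 to 0.0984 for Ndufb11, −0.0544 to 0.0698 for Ndufb8, −0.22 to 0.12 for Uqcrc1, −0.13 to 0.12 for Atp5k, −0.16 to 0.10 for Cox7a2l and −0.20 to 0.42 for Ndufa12. After DSS they ranged from −0.33 to 0.0754 for Cox7a2l and −0.0623 to 0.0235 for Ndufaf3. The log2 ratio of mitochondrial to nuclear reads differed by −0.22 and 0.84 with low-sharing mitochondrial genes alone and by −0.22 and 0.85 with the copies added, both chosen after seeing the data. The low-sharing genes were the 7 with under 50% of windows shared with annotated genes, mt-Atp8 among them and mt-Nd4 not. A copy of mt-Atp8 outside annotated genes was not searched for.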
